A study of Homo sapiens with 24 samples.

Results

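The genes described here are 32 that make cholesterol and fatty acids, steer that synthesis or move sterol in and out of the cell, out of 58174 genes listed for each library. They were chosen by symbol, and each symbol was found once in each of the 4 deposited tables. By role they fall into 18 enzymes of the sterol pathway (ACAT2, HMGCS1, MVK, PMVK, MVD, IDI1, FDPS, FDFT1, SQLE, LSS, CYP51A1, TM7SF2, MSMO1, NSDHL, HSD17B7, EBP, SC5D and DHCR7), 5 genes of the SREBP machinery (SREBF1, SREBF2, SCAP, INSIG1 and INSIG2), 2 genes of sterol transport (STARD4 and ABCA1) and 7 enzymes of fatty acid synthesis and desaturation (ACLY, ACACA, FASN, SCD, ELOVL6, FADS1 and FADS2). The study lowered IGF2BP1, an RNA-binding protein of the embryo that many tumours make again, in human cancer cell lines and sequenced total RNA to ask which transcripts depend on it. In each line one set of dishes received a control siRNA (siC) and the other a pool of siRNAs against IGF2BP1 (siI1), with 3 libraries per group. The lines were A549 from lung adenocarcinoma, ES2 from ovarian clear cell carcinoma, MV3 from amelanotic melanoma and PANC1 from pancreatic ductal adenocarcinoma. All were kept in DMEM with 10% fetal bovine serum, a medium that supplies lipoprotein cholesterol, and RNA was taken 72 h after transfection in A549, ES2 and MV3 and 96 h after it in PANC1. Effects of the longer interval and of the line itself cannot be told apart for PANC1.

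Cholesterol is built from acetyl-CoA through mevalonate, isoprenoid units, squalene and lanosterol. Fatty acids are built from the same acetyl-CoA, which ACLY supplies from citrate. Both routes are switched on by the sterol regulatory element-binding proteins, membrane-bound transcription factors encoded by SREBF1 and SREBF2: SCAP escorts them to the Golgi for cleavage when sterol is low, and INSIG1 and INSIG2 hold SCAP back in the endoplasmic reticulum when sterol is plentiful. The product of SREBF2 acts mainly on sterol enzymes and that of SREBF1 mainly on fatty acid enzymes, while the liver X receptors, which sense oxysterols, switch on SREBF1 and the cholesterol exporter ABCA1.

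Promoter sequence is shown first, because these genes are usually read as one set under shared promoter control. RefSeq windows on GRCh38.p14, each from 250 bases before to 50 bases after a transcription start, were at hand for 28 of the 32 genes, and not for ACAT2, FASN, FDFT1 and SQLE. They were searched on both strands for a sterol regulatory element (TCACNCCAC), the CCAAT box read by NF-Y (CCAAT), an E-box (CACGTG) and a GC box (GGGCGG). Of the 15 sterol enzymes with a window, 13 (86.7%) held a CCAAT box, against 4 of 6 fatty acid enzymes (66.7%) and 42.1% of 15843 protein-coding genes. PMVK and CYP51A1 were the sterol enzymes without one, and their calls, given below, went in opposite directions: PMVK lower in A549 and ES2, CYP51A1 higher in PANC1. The strict sterol regulatory element was found in SREBF2 alone, and in 1.51% of protein-coding genes. A GC box was found in 27 of the 28 genes and in 64.3% of protein-coding genes, and an E-box in 5 of the 28 and in 10.9%. Only exact letters were counted, so known sites that depart from them are not in these numbers. In the sequences below, which run 5′ to 3′ on the strand of the gene, capitals mark the CCAAT box in either orientation (CCAAT or ATTGG) and the sterol regulatory element. MSMO1 is shown as the enzyme called higher in all 4 lines, HMGCS1, MVK and NSDHL as large risers in PANC1, PMVK as the sterol enzyme with calls only downward, and the SREBF2 and SREBF1 windows as the pair that moved in opposite directions. These windows were thus picked by response, and a link between motifs and response was not tested. The coordinates are chr4:165327419-165327718 on the + strand for MSMO1, chr5:43313363-43313662 on the - strand for HMGCS1 (the second of its 2 windows), chr12:109573544-109573843 on the + strand for MVK, chrX:152830813-152831112 on the + strand for NSDHL, chr1:154936670-154936969 on the - strand for PMVK, chr22:41832855-41833154 on the + strand for SREBF2 and chr17:17836937-17837236 on the - strand for SREBF1.
MSMO1: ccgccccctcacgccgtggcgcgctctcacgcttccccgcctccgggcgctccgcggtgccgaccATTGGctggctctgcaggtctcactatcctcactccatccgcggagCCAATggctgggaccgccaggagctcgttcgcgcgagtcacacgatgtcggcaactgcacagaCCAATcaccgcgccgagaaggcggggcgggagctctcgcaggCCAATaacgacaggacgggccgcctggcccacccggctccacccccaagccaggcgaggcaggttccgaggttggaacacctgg
HMGCS1: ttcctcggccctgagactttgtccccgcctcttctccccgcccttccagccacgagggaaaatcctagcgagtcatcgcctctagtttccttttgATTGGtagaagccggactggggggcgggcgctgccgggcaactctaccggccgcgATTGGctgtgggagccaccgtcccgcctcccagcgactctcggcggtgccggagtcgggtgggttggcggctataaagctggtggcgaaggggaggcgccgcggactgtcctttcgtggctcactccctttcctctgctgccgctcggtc
MVK: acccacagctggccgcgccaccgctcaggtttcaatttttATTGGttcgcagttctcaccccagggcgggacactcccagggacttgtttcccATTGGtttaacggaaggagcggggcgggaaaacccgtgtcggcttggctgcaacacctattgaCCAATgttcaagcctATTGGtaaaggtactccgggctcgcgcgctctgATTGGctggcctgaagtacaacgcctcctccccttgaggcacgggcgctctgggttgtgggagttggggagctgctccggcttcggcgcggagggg
NSDHL: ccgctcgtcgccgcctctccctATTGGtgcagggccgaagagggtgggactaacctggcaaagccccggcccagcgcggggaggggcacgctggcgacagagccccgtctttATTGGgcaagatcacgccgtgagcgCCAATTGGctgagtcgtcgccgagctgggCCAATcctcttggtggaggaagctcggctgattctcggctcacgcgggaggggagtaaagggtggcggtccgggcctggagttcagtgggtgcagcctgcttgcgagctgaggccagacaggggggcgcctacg
PMVK: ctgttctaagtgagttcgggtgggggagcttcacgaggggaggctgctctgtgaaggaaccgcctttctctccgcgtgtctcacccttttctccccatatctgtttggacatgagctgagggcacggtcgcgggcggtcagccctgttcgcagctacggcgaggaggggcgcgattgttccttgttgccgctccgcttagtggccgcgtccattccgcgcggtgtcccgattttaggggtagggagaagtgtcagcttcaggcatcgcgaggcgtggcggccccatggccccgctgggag
SREBF2: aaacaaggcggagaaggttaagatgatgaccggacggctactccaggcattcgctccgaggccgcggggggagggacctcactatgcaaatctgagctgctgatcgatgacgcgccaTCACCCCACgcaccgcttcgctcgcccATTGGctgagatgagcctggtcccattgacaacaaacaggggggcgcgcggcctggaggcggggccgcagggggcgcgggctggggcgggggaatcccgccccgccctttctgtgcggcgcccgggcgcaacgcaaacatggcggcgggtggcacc
SREBF1: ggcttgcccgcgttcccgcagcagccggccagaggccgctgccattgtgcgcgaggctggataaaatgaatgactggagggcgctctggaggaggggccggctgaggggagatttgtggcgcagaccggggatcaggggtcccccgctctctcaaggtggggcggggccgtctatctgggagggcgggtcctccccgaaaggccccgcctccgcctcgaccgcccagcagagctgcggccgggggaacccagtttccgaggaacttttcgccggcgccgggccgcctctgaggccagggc

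MVK and NSDHL each held 5 CCAAT boxes and MSMO1 held 4, all upstream of the start; in NSDHL a pair overlaps, since the letters of one orientation run into those of the other. SREBF2 held its sterol regulatory element 133 bases before the start and a CCAAT box 106 bases before it. The PMVK window and the 1 window of SREBF1, at the 5′ end of the annotated gene, held GC boxes only. Any start site of SREBF1 further downstream was not searched.

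**Figure D1:**
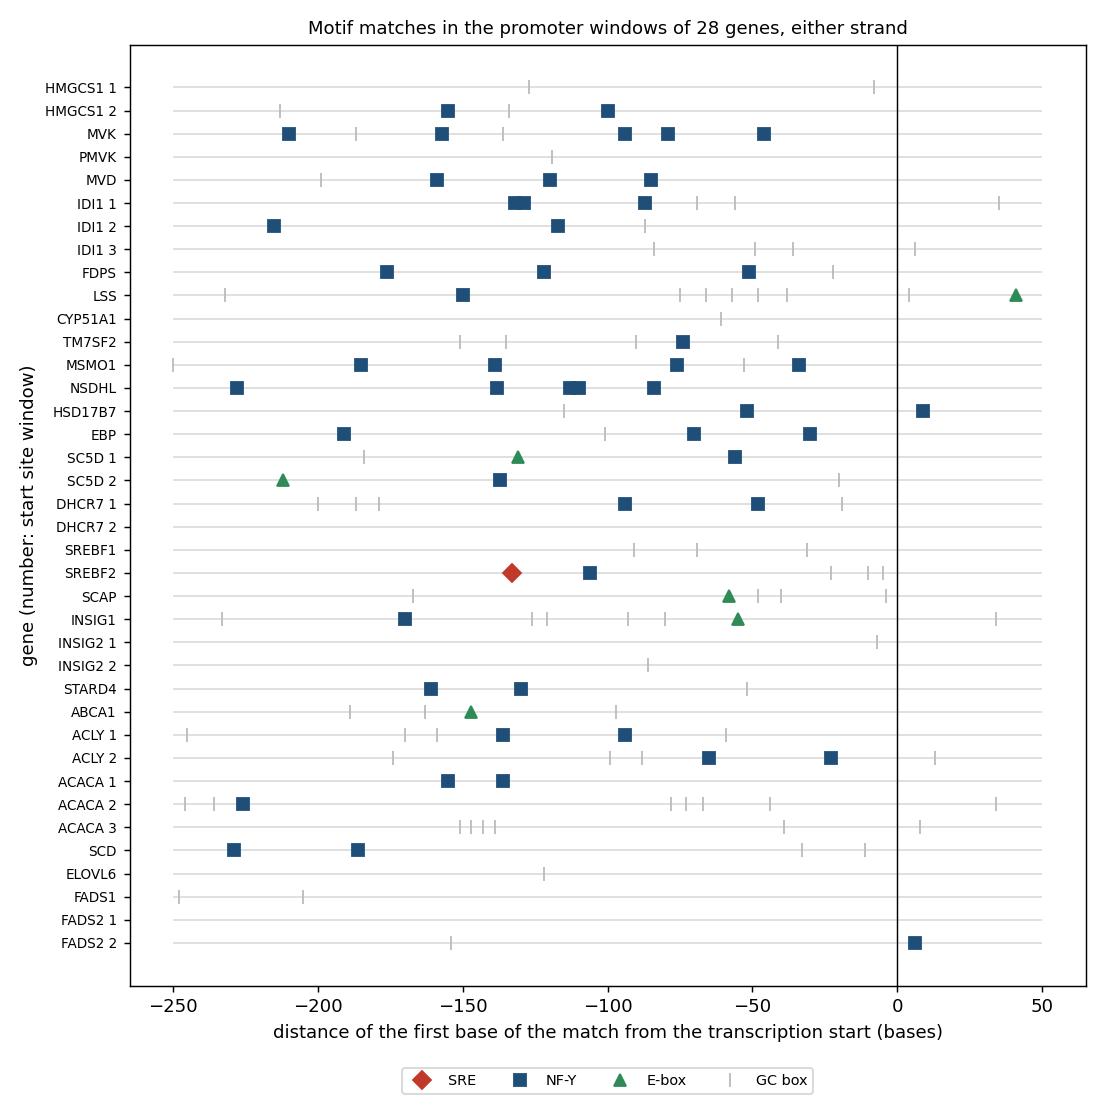
Position of each motif match (first base, in bases from the transcription start) in the 38 RefSeq promoter windows of 28 genes, 1 row per window, with diamonds for the sterol regulatory element, squares for CCAAT, triangles for the E-box and ticks for the GC box. Squares stand upstream of the start in most sterol enzyme rows, PMVK and CYP51A1 have none in any window, and the only diamond is in SREBF2.

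Values are FPKM, the fragments counted for a gene per kilobase of its listed length and scaled to the size of the library. Log2 fold changes are siI1 minus siC on the log2(FPKM + 0.5) scale, given ± SE, and adjusted p-values are from limma over all genes tested in the line, with a threshold of 0.05. Assigned reads numbered 3105215 to 4553326 per A549 library, 15572492 to 20082702 per MV3 library, 6421764 to 8419467 per ES2 library and 6532175 to 8472851 per PANC1 library, so that a gene at a given FPKM was measured least precisely in A549. The labelled origins were checked against marker genes: the keratins KRT8, KRT18 and KRT19 with EPCAM and CDH1 were all at 0.5 FPKM or more in A549 and PANC1 siC libraries, whereas ES2 had 2 of these 5 epithelial markers and 0 of 3 ovarian ones, MV3 had 0 of 5 melanocytic markers and A549 0 of 3 lung markers. Markers of leukocytes and endothelium summed to at most 2.48 FPKM in siC, except in ES2, where the 2 endothelial markers summed to 9.91 FPKM in siC and 15.6 in siI1. The epithelial sum moved with the knockdown, to 390 from 811 FPKM in A549 and to 2130 from 1540 in PANC1, and the part of this in the results below was not tested. In such bulk RNA, fewer cells holding a transcript cannot be told apart from less of it per cell. The targeted transcript IGF2BP1 kept 0.249 of its siC level in PANC1, 0.314 in MV3, 0.317 in ES2 and 0.394 in A549, and in none of the lines did its groups overlap.

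All 32 genes passed the filter on low values in all 4 lines. In A549, 8 of them (25%) were lower after knockdown, where 7.83% of all tested genes were, and 4 (12.5%) were higher, where 5.93% of all genes were. In ES2, 2 genes (6.25%) were lower against 13.0% of all genes, and 15 (46.9%) were higher against 10.5%. In MV3, 8 (25%) were lower against 19.5%, and 10 (31.2%) were higher against 16.3%. In PANC1, 4 (12.5%) were lower against 13.4%, and 20 (62.5%) were higher against 11.3%. With libraries set to equal sums the PANC1 split was 5 higher and 12 lower, where 0.578% of all tested genes were higher and 55.1% lower on that scale, and the A549 split was 1 higher and 5 lower, where 4.11% and 7.85% of all genes were. On the main scale the share called higher was therefore above the background in all 4 lines, and the share called lower in A549. The MV3 share called lower was near its background. In A549 the higher calls of MSMO1, SQLE and ELOVL6 were lost in 5, 4 and 5 of 6 fits without 1 library. With equal library sums A549 had no excess on the higher side. Since these genes were picked with earlier results known, the shares are descriptions. Over the lines, 30 of the 32 were called in at least 1 line (93.8%, against 60.7% of the 12816 genes tested in all 4 lines). SREBF1 was the only member lower in all 4 lines and MSMO1 the only one higher in all 4, patterns seen in 2.51% and 0.577% of all genes. The MSMO1 pattern rests on an A549 call at adjusted p = 0.0494, which was not made without the filter on low values (0.0736), with equal library sums (0.0942) or in 5 of 6 fits without 1 library (up to 0.15). Calls in opposite directions in different lines occurred in 7 members (21.9%, against 6.03% of all genes): FDPS, INSIG1, ACLY, FASN, SCD, ELOVL6 and FADS2.

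**Figure D2:**
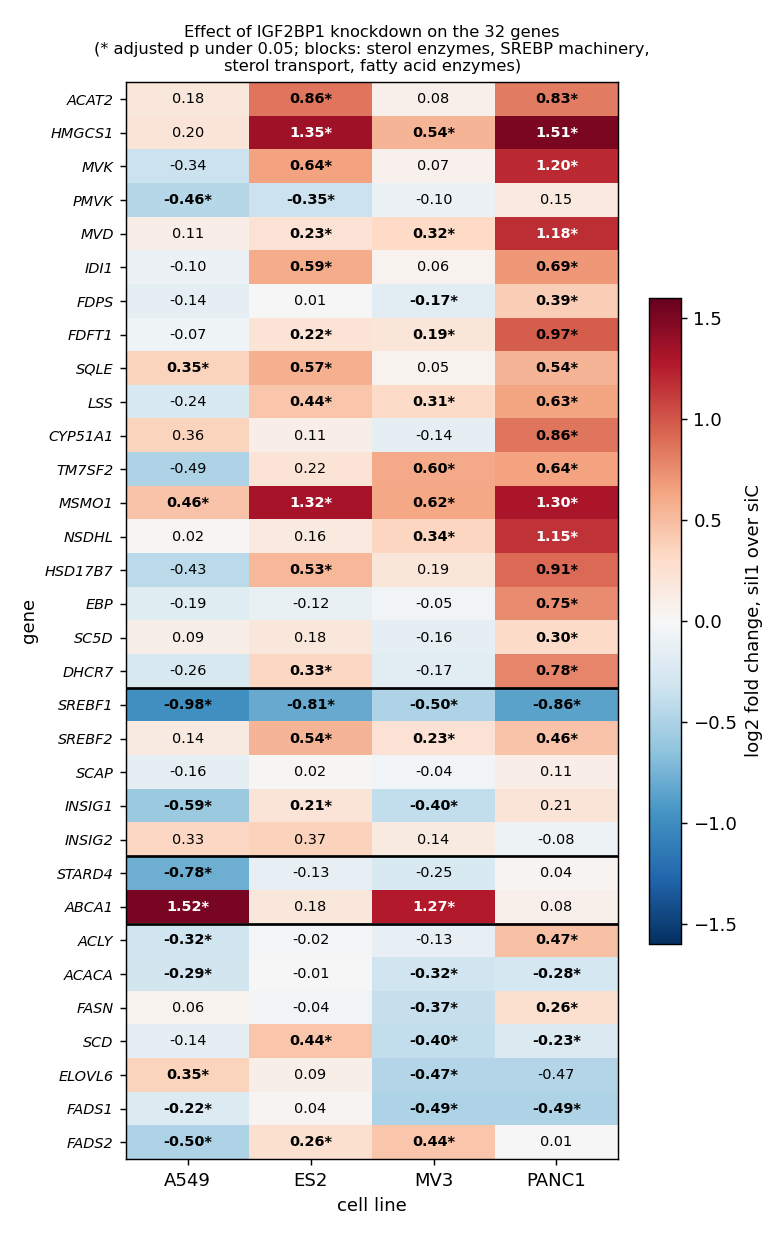
Log2 fold change (siI1 over siC) of each of the 32 genes (rows) in each cell line (columns), with an asterisk where the limma adjusted p was under 0.05 and black lines between the 4 roles. The sterol block is red in PANC1, with 17 of 18 genes called higher (5 with libraries set to equal sums), SREBF1 is blue in all 4 columns, and the fatty acid block is mostly blue in MV3.

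The genes of the pair of SREBPs moved apart. SREBF1, which encodes both SREBP-1 isoforms, fell in every line, to between 0.493 and 0.695 of its siC level. Its values were 18.3, 16.2 and 19.3 FPKM in siC and 8.82, 8.87 and 8.79 in siI1 in A549. SREBF1 stood at 13.7, 14.9 and 12.9 FPKM in siC and 8.14, 7.46 and 7.36 in siI1 in ES2. SREBF1 read 13.5, 13.8 and 13.2 FPKM in siC and 9.04, 10.1 and 9.05 in siI1 in MV3. Every siI1 library was under every siC library in these 3 lines. In PANC1 the SREBF1 values were 12.2, 12.7 and 13.2 FPKM in siC and 7.36, 6.44 and 6.53 in siI1, again without overlap. A549 showed the largest log2 fold change, -0.98 ± 0.08 (adjusted p = 0.00146), followed by PANC1 with -0.86 ± 0.07 (adjusted p = 0.00127), ES2 with -0.81 ± 0.07 (adjusted p = 0.000994) and MV3 with -0.50 ± 0.05 (adjusted p = 0.000826). SREBF1 had the largest fall of all 32 genes in each line. The effect differed in size between lines (joint limma F test over 24 libraries, adjusted p = 0.00324), with the smallest estimate in MV3. SREBF1 (hg38 chromosome 17, 17810399 to 17837002, minus strand) shares 6.75% of its exon bases with RAI1 on the other strand.

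SREBF2, whose product drives sterol enzymes, moved the other way. It rose in ES2, MV3 and PANC1. SREBF2 was at 14.4, 15.8 and 15.3 FPKM in siC and 22.4, 22 and 22.6 in siI1 in ES2. SREBF2 was measured at 23.9, 23.2 and 22.5 FPKM in siC and 25.8, 28.1 and 28.2 in siI1 in MV3. In PANC1 the SREBF2 libraries gave 16, 15 and 15.4 FPKM in siC and 20.4, 21.8 and 22.1 in siI1. No siI1 library of these 3 lines fell within the siC range, and the log2 fold change was 0.54 ± 0.05 (adjusted p = 0.00103), 0.23 ± 0.05 (adjusted p = 0.00927) and 0.46 ± 0.06 (adjusted p = 0.00306), in that order. In A549 the SREBF2 values of 16.3, 14.2 and 14.6 FPKM in siC and 16.9, 17.6 and 15.3 in siI1 overlapped, and the estimate of 0.14 ± 0.08 (adjusted p = 0.337) had a 95% interval of -0.06 to 0.34. The difference between lines passed the joint test (adjusted p = 0.00147). SREBF2 (chromosome 22, 41833105 to 41907306, plus strand) overlaps SREBF2-AS1 in 9.08% of its exon bases; whether the counting kept the strands apart is not given in the sources used here.

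Because both factors are read on one length-scaled unit, their balance can be given per library. SREBF2 over SREBF1 was 0.891, 0.876 and 0.757 in A549 siC and 1.92, 1.99 and 1.74 in siI1. In ES2 the ratio went from 1.06, 1.06 and 1.19 to 2.75, 2.95 and 3.07. MV3 had the highest ratio in siC, 1.77, 1.68 and 1.7, and reached 2.86, 2.78 and 3.12. Within each of these lines, all siI1 ratios were above all siC ratios. PANC1 moved from 1.3, 1.18 and 1.17 to 2.78, 3.39 and 3.38. SREBF1 was thus the more abundant of the pair in A549 control cells alone, and SREBF2 the more abundant in all 12 knockdown libraries.

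Of the 3 regulators of SREBP transport, INSIG1 alone was called. SCAP, the escort, was called in no line, with 95% intervals of its log2 fold change of -0.42 to 0.10 (A549), -0.22 to 0.13 (MV3), -0.14 to 0.18 (ES2) and -0.03 to 0.26 (PANC1). INSIG2 was called in no line either, but with group means of 1.55 to 4.33 FPKM it was measured less precisely, and its interval in ES2 was 0.05 to 0.69. Its ES2 rise did pass the threshold with weights from recovered reads (voom, 0.42, adjusted p = 0.0274) and with equal protein-coding sums (0.50, adjusted p = 0.0343). INSIG1, itself a target of SREBPs, changed in opposite directions. INSIG1 was at 12.6, 14 and 12.7 FPKM in siC and 8.26, 9.28 and 8.12 in siI1 in A549. Its MV3 values were 26.6, 25.2 and 25.2 FPKM in siC and 19.4, 20.2 and 18.5 in siI1. INSIG1 fell in both lines without overlap, with log2 fold changes of -0.59 ± 0.08 (adjusted p = 0.00792) and -0.40 ± 0.04 (adjusted p = 0.00102) respectively. In ES2 INSIG1 went from 25.9, 28.7 and 26.9 FPKM to 31.8, 31.4 and 31.1, a rise of 0.21 ± 0.05 (adjusted p = 0.0271). The PANC1 values of 25.6, 24.8 and 25.3 FPKM in siC and 29.8, 31.7 and 26.6 in siI1 also did not overlap, but the estimate of 0.21 ± 0.07 (adjusted p = 0.0811) missed the threshold. The joint test of INSIG1 gave an adjusted p of 6.30e-07, whereas SCAP (0.21) and INSIG2 (0.294) were not called as different between lines.

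**Figure D3:**
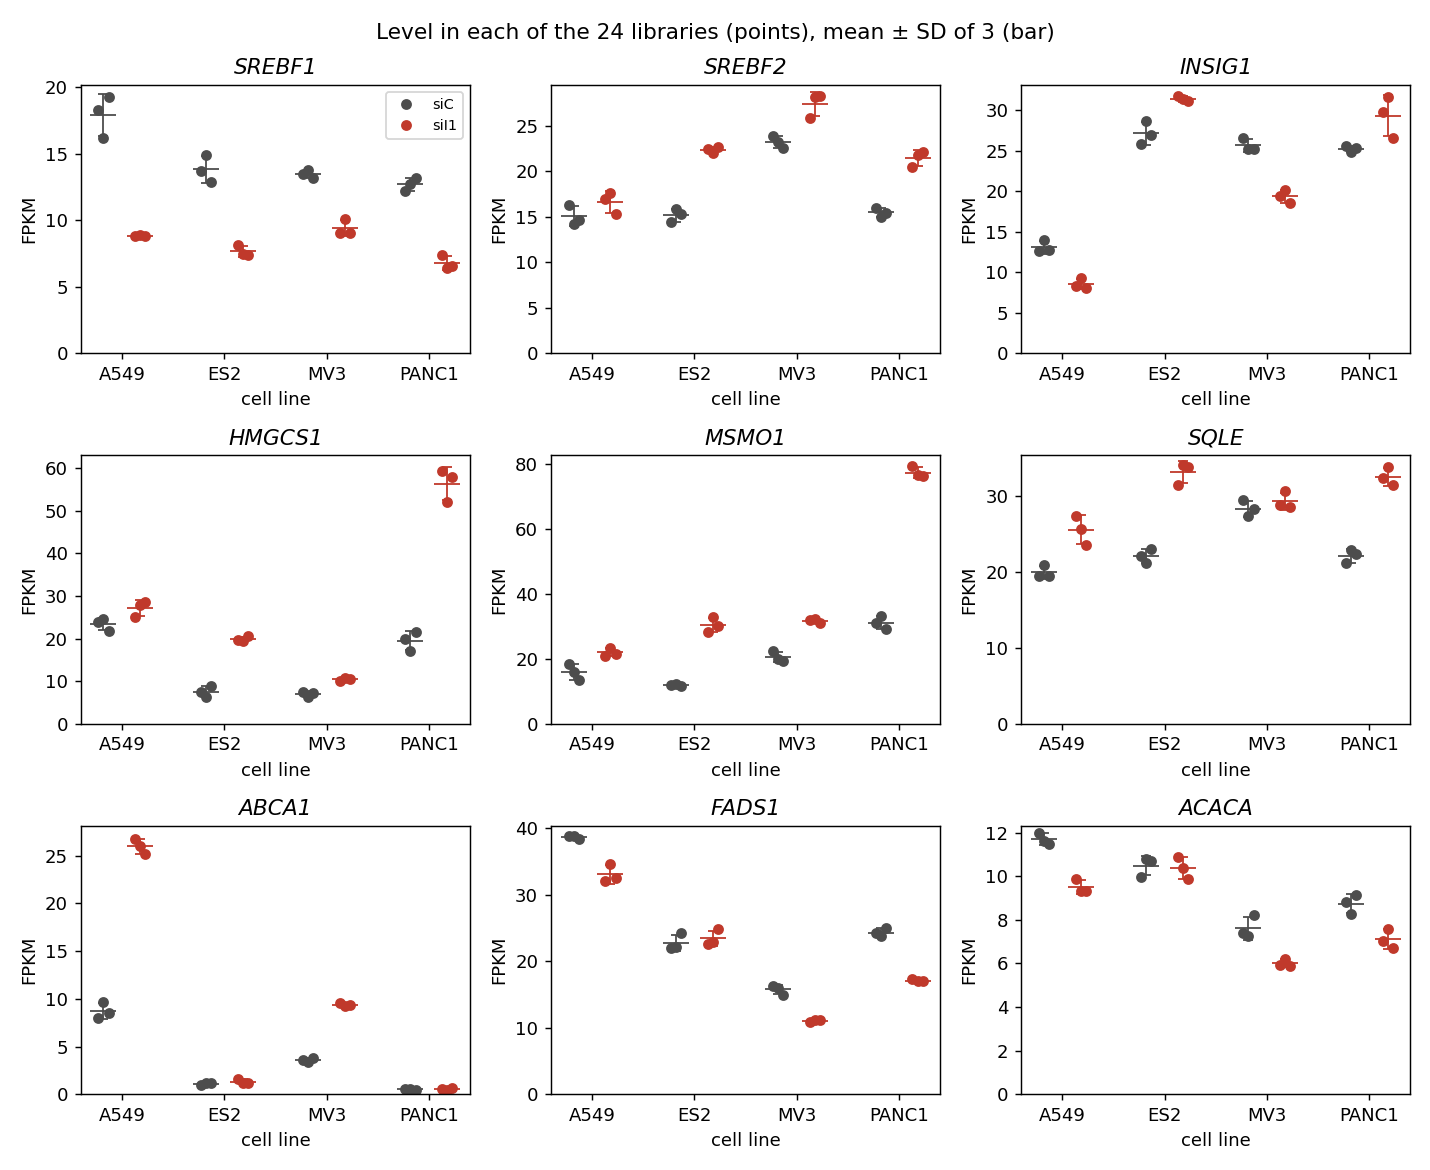
FPKM (y axis, from 0) of 9 of the genes in each of the 24 libraries, siC in grey and siI1 in red, by cell line, with bars for the mean ± SD of 3 libraries. SREBF1 is lower in siI1 in all 4 lines, SREBF2, HMGCS1 and MSMO1 are higher in ES2, MV3 and PANC1 without overlap, and ABCA1 is higher in A549 and MV3.

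Sterol enzymes as a group rose most in PANC1 and next in ES2. In PANC1, 17 of the 18 rose and 0 fell, with a median log2 fold change of 0.81 beside -0.04 over all tested genes. In ES2, 11 rose and 1 fell, with a median of 0.28 beside -0.02. In MV3, 7 rose and 1 fell, with a median of 0.08 beside 0.01. In A549, 2 rose and 1 fell, with a median of -0.08 beside -0.01, and 8 of the 18 estimates were above 0. Over all tested genes, 11.3% rose and 13.4% fell in PANC1, 10.5% and 13.0% in ES2, 16.3% and 19.5% in MV3, and 5.93% and 7.83% in A549. Summed over the 18 enzymes, the siC level in PANC1 was 363 ± 13.3 FPKM (all ± SD, n = 3) and the siI1 level 660 ± 13, the corresponding ES2 levels were 553 ± 14 and 708 ± 14.4, those of MV3 269 ± 10.6 and 284 ± 9.1, and those of A549 217 ± 6.06 and 217 ± 6.37. Within the ES2 sum, DHCR7 alone went from 333 to 419 FPKM. The group's sum was 1.82 times as high after knockdown in PANC1 and at a ratio of 0.999 in A549. In PANC1 the size of this depended most on whether libraries were set to equal sums over all genes. The short cytoplasmic RNA RN7SL2 took 50.1% to 56.2% of summed FPKM in PANC1 siC libraries and 62.0% to 64.6% in siI1. Rescaling every library to the same sum shifted the median of all genes in PANC1 to -0.68 and that of the sterol enzymes to 0.06, and left HMGCS1, MVK, MVD, MSMO1 and NSDHL as the members called higher. Among members called in PANC1 on either scale, 14 that were above 0 were below 0 on the rescaled values, with estimates of -0.73 to -0.05. Of these, FADS2 alone was below the shifted median of all genes. They were PMVK, IDI1, FDPS, SQLE, LSS, TM7SF2, SC5D, SREBF2, SCAP, INSIG1, STARD4, ACLY, FASN and FADS2. Equal sums over protein-coding genes and the median of ratios shifted the PANC1 median of all genes by -0.04 and 0.04 only. Neither of these scalings ended any of the 17 sterol enzyme calls in PANC1.

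The first steps turn acetyl-CoA into mevalonate and its phosphates. HMGCS1, the cytosolic HMG-CoA synthase, had the largest rise of all members in ES2 and PANC1. HMGCS1 was at 19.9, 17.2 and 21.5 FPKM in siC and 59.3, 52 and 58 in siI1 in PANC1. HMGCS1 stood at 7.52, 6.26 and 8.87 FPKM in siC and 19.6, 19.4 and 20.5 in siI1 in ES2. The knockdown libraries held 2.89 times the control level in PANC1 and 2.63 times in ES2, with log2 fold changes of 1.51 ± 0.10 (adjusted p = 0.000754) and 1.35 ± 0.12 (adjusted p = 0.000924). In MV3 the HMGCS1 values were 7.52, 6.27 and 7.23 FPKM in siC and 10.1, 10.8 and 10.4 in siI1, a smaller rise of 0.54 ± 0.07 (adjusted p = 0.00192). A549 gave 23.8, 24.7 and 21.8 FPKM in siC and 25, 27.8 and 28.5 in siI1, where the groups did not overlap but the estimate of 0.20 ± 0.08 (adjusted p = 0.144) was not called. The differences between lines were called (adjusted p = 1.33e-06). HMGCS1 (chromosome 5, 43287470 to 43313512, minus strand) has 37.7% of its exon bases under an opposite-strand lncRNA, ENSG00000261604, which had at most 1 read in any library.

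Of the other early enzymes, ACAT2, which joins acetyl-CoA units, rose in ES2 from 12.6 ± 1.29 to 23.2 ± 1.06 FPKM and in PANC1 from 29.4 ± 1.93 to 52.9 ± 2.95 (SD, n = 3 each), with 17.2% of its exon bases shared with TCP1 on the other strand. MVK, mevalonate kinase, rose by 0.64 ± 0.11 (adjusted p = 0.00807) in ES2 and 1.20 ± 0.07 (adjusted p = 0.00061) in PANC1. MVD, the decarboxylase that makes isopentenyl diphosphate, was called higher in 3 lines. MVD was at 10.2, 10.9 and 9.34 FPKM in siC and 24.6, 23.5 and 22.7 in siI1 in PANC1, its largest rise at 1.18 ± 0.07 (adjusted p = 0.000652). MVD measured 6.32, 6.94 and 5.76 FPKM in siC and 7.59, 7.97 and 8.44 in siI1 in MV3, an increase of 0.32 ± 0.08 (adjusted p = 0.0192). The ES2 libraries of MVD held 8.95, 9.56 and 9.23 FPKM in siC and 11.2, 10.3 and 11.4 in siI1, with 0.23 ± 0.06 (adjusted p = 0.0374). In A549 the MVD values of 3.01, 4.1 and 3.48 FPKM in siC and 4.35, 4.48 and 2.87 in siI1 overlapped, and no call was made. PMVK, the phosphomevalonate kinase between MVK and MVD in the route, was the exception among these neighbours: it fell in A549 (-0.46 ± 0.11, adjusted p = 0.0406) and ES2 (-0.35 ± 0.05, adjusted p = 0.00565), and its estimates of -0.10 in MV3 and 0.15 in PANC1 were not called.

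Isoprenoid units are then joined into farnesyl diphosphate. IDI1, the isomerase, rose by 0.59 ± 0.07 (adjusted p = 0.00288) in ES2 and 0.69 ± 0.06 (adjusted p = 0.00124) in PANC1, and its estimates of -0.10 in A549 and 0.06 in MV3 were not called. FDPS, farnesyl diphosphate synthase, was called in opposite directions. FDPS was at 36.1, 34.8 and 36.4 FPKM in siC and 47.5, 48.4 and 45.2 in siI1 in PANC1. In MV3 it was at 59.1, 57 and 56.8 FPKM in siC and 50.2, 52.5 and 51 in siI1. FDPS therefore rose by 0.39 ± 0.05 (adjusted p = 0.00356) in PANC1 and fell by a small amount in MV3 (-0.17 ± 0.03, adjusted p = 0.00706), neither with overlap. The ES2 values of FDPS were 47.3, 50.8 and 49.5 FPKM in siC and 51.1, 46.6 and 51.5 in siI1 and those of A549 26.4, 28.1 and 26.7 FPKM in siC and 21.3, 27.1 and 25.3 in siI1, both overlapping. The MV3 call of FDPS did not stand after scaling to the protein-coding sum, where its log2 fold change was -0.03. FDPS has many processed pseudogenes. The 8 listed under its name averaged at most 0.52 FPKM in any line, beside 25.8 to 54.4 FPKM for the gene. FDPS also shares 18.6% of its exon bases with RUSC1-AS1 on the other strand. RUSC1-AS1 rose in MV3, from 1.53 to 2.53 FPKM (limma adjusted p = 0.012). IDI1 shares 15% of its exon bases with IDI2-AS1 on the other strand, whose group means were at most 1.3 FPKM.

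Squalene synthesis and closure to lanosterol follow. FDFT1, squalene synthase, was called higher in 3 lines. FDFT1 was at 14.2, 15 and 11.1 FPKM in siC and 26.1, 25.8 and 27.8 in siI1 in PANC1, 1.98 times the control level (0.97 ± 0.11, adjusted p = 0.0028). Smaller rises were seen for FDFT1 in ES2, at 22.2, 21.3 and 21.2 FPKM in siC and 25.7, 24.2 and 25.6 in siI1, and in MV3, at 16.3, 17.1 and 17 FPKM in siC and 19.8, 19.9 and 18.1 in siI1. These were 0.22 ± 0.05 (adjusted p = 0.0194) and 0.19 ± 0.05 (adjusted p = 0.0189). The A549 values of FDFT1, 13.6, 13.5 and 13.5 FPKM in siC and 11.8, 12.8 and 14.1 in siI1, overlapped. SQLE, squalene epoxidase and a rate-limiting oxygenase of the route, was one of the 2 sterol enzymes higher in A549. SQLE was at 19.4, 20.9 and 19.5 FPKM in siC and 27.4, 25.7 and 23.6 in siI1 there, a rise of 0.35 ± 0.07 (adjusted p = 0.0256). SQLE in ES2 read 22.1, 21.2 and 23 FPKM in siC and 31.5, 34.1 and 33.8 in siI1 and in PANC1 21.1, 22.9 and 22.4 FPKM in siC and 32.3, 33.8 and 31.4 in siI1. The rises in these lines were 0.57 ± 0.05 (adjusted p = 0.00104) and 0.54 ± 0.06 (adjusted p = 0.00213). In MV3 SQLE overlapped at 29.4, 27.3 and 28.3 FPKM in siC and 28.8, 30.6 and 28.5 in siI1. LSS, lanosterol synthase, was called higher outside A549. LSS was at 7.44, 7.67 and 7.57 FPKM in siC and 10.3, 9.85 and 11.1 in siI1 in ES2, at 9.77, 10.3 and 9.45 FPKM in siC and 11.6, 13.4 and 12.2 in siI1 in MV3 and at 9.52, 10.4 and 10.9 FPKM in siC and 15.7, 16.8 and 15.9 in siI1 in PANC1. None of these overlapped, with 0.44 ± 0.06 (adjusted p = 0.00438), 0.31 ± 0.06 (adjusted p = 0.00992) and 0.63 ± 0.07 (adjusted p = 0.00243). In A549 LSS gave 3.39, 3.82 and 3.34 FPKM in siC and 2.71, 2.86 and 3.12 in siI1, without overlap but not called (-0.24 ± 0.12, adjusted p = 0.241).

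The enzymes after lanosterol remove methyl groups and move double bonds. MSMO1, the C4-methylsterol oxidase, was the member that rose in all 4 lines. MSMO1 was at 11.8, 12.2 and 11.6 FPKM in siC and 28.4, 32.8 and 30.2 in siI1 in ES2. MSMO1 stood at 31.2, 33.1 and 29.2 FPKM in siC and 79.4, 76.6 and 76.5 in siI1 in PANC1. It was 2.57 times its control level in ES2 and 2.49 times in PANC1, with log2 fold changes of 1.32 ± 0.06 (adjusted p = 0.000127) and 1.30 ± 0.06 (adjusted p = 0.000463). MV3 libraries held 22.3, 20.1 and 19.5 FPKM in siC and 32, 32.3 and 31.2 in siI1 of MSMO1, a rise of 0.62 ± 0.05 (adjusted p = 0.00046). In A549 the values were 18.4, 16 and 13.6 FPKM in siC and 21, 23.4 and 21.6 in siI1. The groups did not overlap in any line, but the A549 call was close to the threshold (0.46 ± 0.12, adjusted p = 0.0494). The effect differed between lines (adjusted p = 5.35e-06). MSMO1 lies on chromosome 4 (165327667 to 165343164, plus strand), and no other annotated gene overlaps its exons.

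NSDHL, which acts with MSMO1 in C4 demethylation, rose in PANC1 from 34.2 ± 3.38 to 76.4 ± 3.75 FPKM and in MV3 from 10.9 ± 0.904 to 13.9 ± 0.709 (SD, n = 3 each), while its groups overlapped in A549 and ES2. HSD17B7, the third component of that step, rose in ES2 (0.53 ± 0.13, adjusted p = 0.0282) and PANC1 (0.91 ± 0.08, adjusted p = 0.00139); its pseudogene HSD17B7P2 was at 0.195 to 2.41 FPKM, close to the 1.67 to 4.63 FPKM of the gene in some lines, so that reads may be split between them. CYP51A1, the lanosterol demethylase, was called in PANC1 only (0.86 ± 0.08, adjusted p = 0.00182), where its pseudogene CYP51A1P2 averaged 2.32 FPKM beside 5.46 for the gene. TM7SF2, a sterol C14 reductase, rose in MV3 from 0.575 ± 0.0522 to 1.13 ± 0.1 FPKM and in PANC1 from 8.97 ± 0.62 to 14.2 ± 0.908 (SD, n = 3 each). EBP, the isomerase, and SC5D, the C5 desaturase, were called in PANC1 alone, by 0.75 and 0.30 on the log2 scale. DHCR7, the last reductase of the route, rose in ES2 and PANC1. Its level in ES2 stood apart, at 333 ± 12.8 FPKM (SD, n = 3) with control siRNA and 419 ± 11.1 (SD, n = 3) after knockdown, the 99.3 percentile of protein-coding genes in that line's controls, whereas it was at the 77.4 percentile in A549. DHCR7 rose by 0.33 ± 0.05 (adjusted p = 0.00443) in ES2 and 0.78 ± 0.06 (adjusted p = 0.00105) in PANC1, and its estimates of -0.26 in A549 and -0.17 in MV3 were not called.

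**Figure D4:**
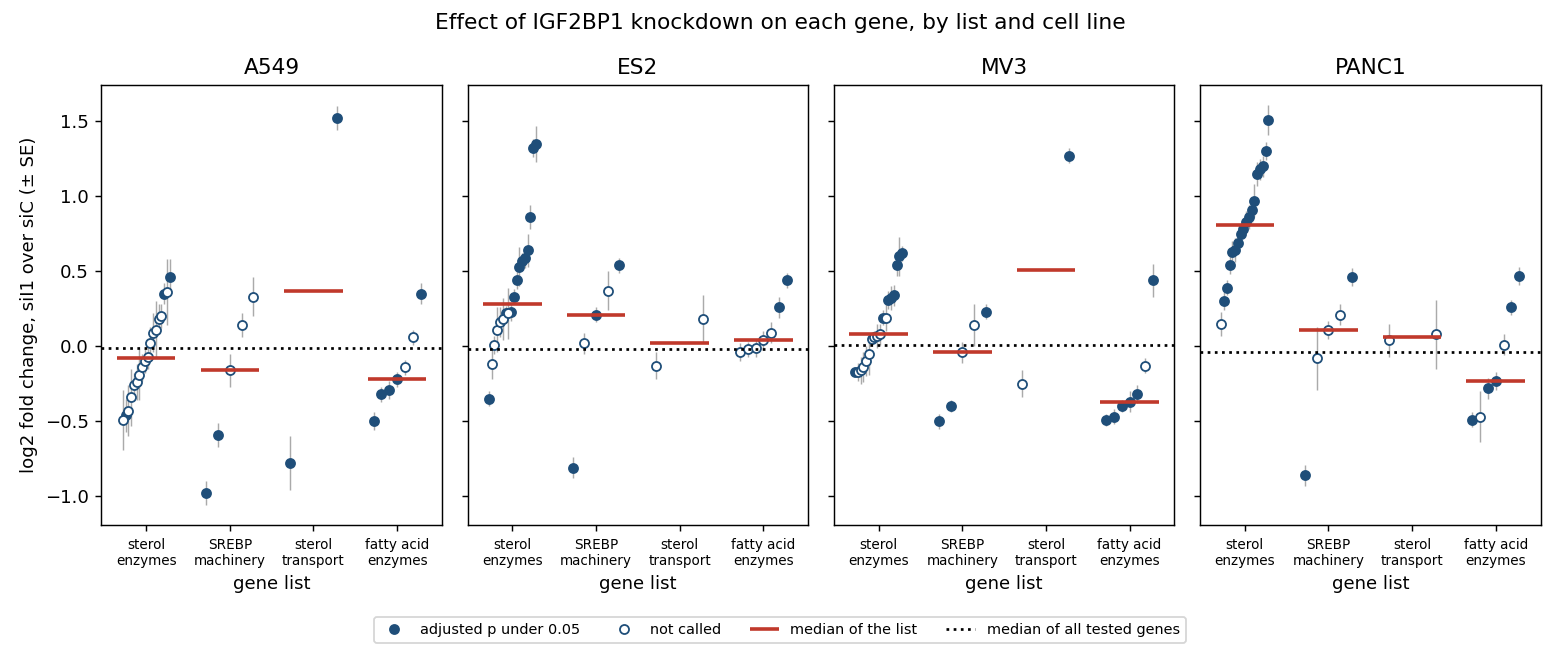
Log2 fold change ± SE of each gene, ordered by size within its role (x axis), in 1 panel per cell line; filled points have an adjusted p under 0.05, red lines are the median of the role and dotted lines the median of all tested genes. The sterol median is 0.81 in PANC1 and -0.08 in A549, and the fatty acid median is under the dotted line in A549, MV3 and PANC1.

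The 2 transport genes each changed in few lines. ABCA1, the exporter that loads cholesterol onto apolipoprotein A-I, had the largest rise of all 32 genes in A549 and in MV3. ABCA1 was at 8.01, 9.7 and 8.52 FPKM in siC and 26.8, 26 and 25.2 in siI1 in A549. ABCA1 in MV3 read 3.59, 3.38 and 3.81 FPKM in siC and 9.54, 9.25 and 9.32 in siI1. The rises were 2.97-fold and 2.61-fold, with 1.52 ± 0.08 (adjusted p = 0.000586) and 1.27 ± 0.05 (adjusted p = 8.00e-05). In ES2 the level was low, at 0.974, 1.17 and 1.2 FPKM in siC and 1.59, 1.21 and 1.2 in siI1, and in PANC1 it was lower still, at 0.538, 0.497 and 0.483 FPKM in siC and 0.528, 0.483 and 0.68 in siI1. The ES2 groups did not overlap and the PANC1 groups did, and no call was made in either, with 95% intervals of -0.20 to 0.56 in ES2 and -0.48 to 0.64 in PANC1. The difference between lines was called (adjusted p = 6.31e-08). The lines in which ABCA1 rose were those with the smaller sterol enzyme medians on the main scale, a description over 4 lines. With equal library sums the sterol median of PANC1 was much smaller, as given above. In PANC1, ABCA1 also lay near the filter of 0.5 FPKM. STARD4, a cytosolic sterol carrier, fell in A549 from 5.01 ± 0.99 to 2.7 ± 0.443 FPKM (SD, n = 3 each; -0.78 ± 0.18, adjusted p = 0.0395) and was not called elsewhere.

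The fatty acid enzymes were called in both directions, and their difference from the sterol enzymes was not tested. Of the 7, 4 fell and 1 rose in A549, beside 7.83% lower and 5.93% higher over all tested genes. In ES2, 0 fell and 2 rose, beside 13.0% and 10.5%. In MV3, 5 fell and 1 rose, beside 19.5% and 16.3%, and in PANC1, 3 fell and 2 rose, beside 13.4% and 11.3%. The median of their log2 fold changes was lowest in MV3 at -0.37, and stood at -0.23 in PANC1, -0.22 in A549 and 0.04 in ES2. The summed level of the 7 was 457 ± 13.6 FPKM with siC and 393 ± 10.3 with siI1 in A549 (all ± SD, n = 3), 244 ± 9.72 and 194 ± 7.43 in MV3, 454 ± 9.64 and 516 ± 11.6 in ES2, and 545 ± 1.9 and 554 ± 21.6 in PANC1. The fatty acid sum was thus higher in ES2, as the sterol sum was, and lower in A549 and MV3. Such sums weigh the most abundant genes. SCD alone went from 183 to 248 FPKM in ES2, where the median fold change of the 7 was 0.04, and ACLY from 208 to 167 FPKM in A549.

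**Figure D5:**
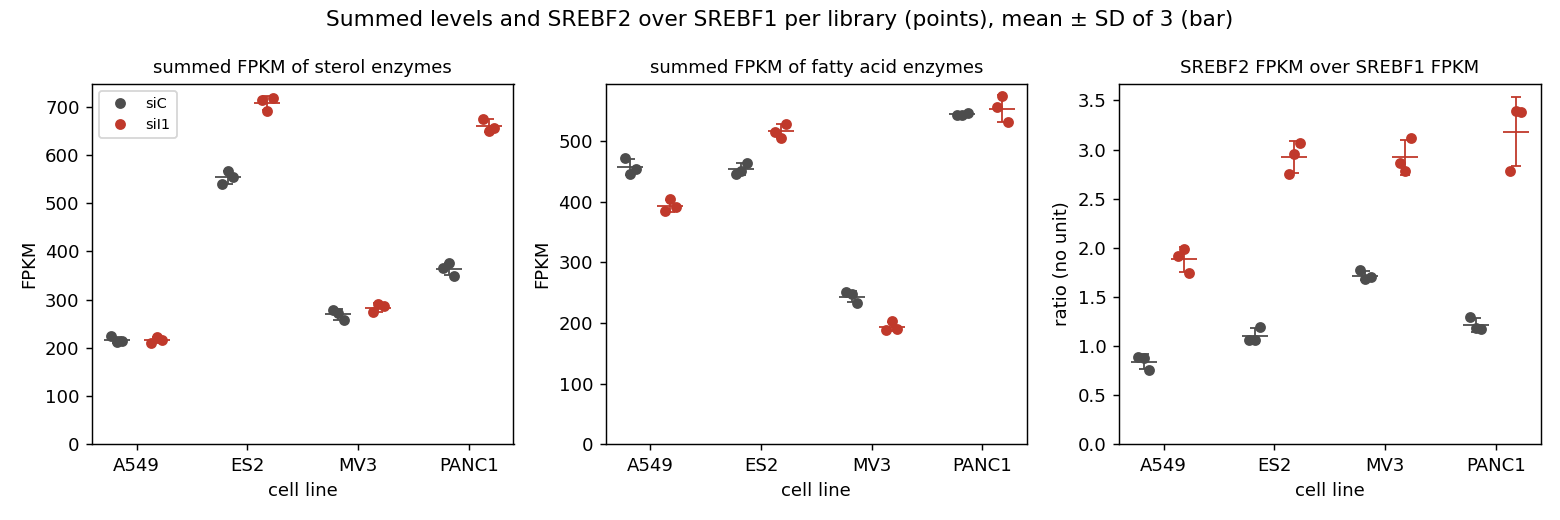
Summed FPKM of the 18 sterol enzymes (left), summed FPKM of the 7 fatty acid enzymes (middle) and the ratio of SREBF2 to SREBF1 FPKM (right) in each library, siC in grey and siI1 in red, with bars for the mean ± SD of 3. The sterol sum rises in ES2 and PANC1, the fatty acid sum falls in A549 and MV3, and the ratio is higher in siI1 in all 4 lines.

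The entry enzymes were read first. ACLY, ATP citrate lyase, fell in A549 and rose in PANC1. ACLY was at 215, 201 and 207 FPKM in siC and 158, 175 and 167 in siI1 in A549 and at 60.1, 64.3 and 58.2 FPKM in siC and 85.6, 85.3 and 82 in siI1 in PANC1. With no overlap in either, the log2 fold changes were -0.32 ± 0.05 (adjusted p = 0.015) and 0.47 ± 0.06 (adjusted p = 0.00291). ACLY values were 78.9, 83.9 and 77.3 FPKM in siC and 78.4, 76.3 and 82 in siI1 in ES2, with overlap. In MV3 they were 57.6, 56 and 51.4 FPKM in siC and 49.9, 50.6 and 49.6 in siI1, without overlap but not called (-0.13 ± 0.05, adjusted p = 0.0639). ACACA, the acetyl-CoA carboxylase that commits carbon to fatty acids, fell in every line but ES2. These calls depended on the scaling: with libraries set to equal protein-coding sums none of the 3 was made (adjusted p = 0.0532 in A549, 0.0783 in MV3 and 0.0543 in PANC1), and by the median of ratios those of A549 (0.0587) and PANC1 (0.0594) were not. ACACA was at 12, 11.6 and 11.5 FPKM in siC and 9.87, 9.31 and 9.31 in siI1 in A549. ACACA stood at 7.39, 7.25 and 8.23 FPKM in siC and 5.92, 6.21 and 5.9 in siI1 in MV3. In PANC1 the ACACA values were 8.81, 8.26 and 9.14 FPKM in siC and 7.05, 7.59 and 6.71 in siI1. The log2 fold changes were -0.29 ± 0.06 (adjusted p = 0.0315), -0.32 ± 0.06 (adjusted p = 0.00721) and -0.28 ± 0.07 (adjusted p = 0.0369). ES2 gave 9.97, 10.8 and 10.7 FPKM in siC and 10.9, 10.4 and 9.88 in siI1, with a 95% interval of -0.16 to 0.14. FASN, fatty acid synthase, fell in MV3 and rose in PANC1. FASN was at 48.4, 47.9 and 42.6 FPKM in siC and 33.4, 39 and 34.8 in siI1 in MV3 and at 160, 169 and 167 FPKM in siC and 198, 203 and 192 in siI1 in PANC1. The changes were -0.37 ± 0.07 (adjusted p = 0.0102) and 0.26 ± 0.05 (adjusted p = 0.0166). In A549 (47.2, 46 and 50.3 FPKM in siC and 51.5, 49 and 49.3 in siI1) and ES2 (127, 141 and 138 FPKM in siC and 137, 124 and 131 in siI1) FASN overlapped between groups.

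Elongation and desaturation came next. SCD, the stearoyl-CoA desaturase that makes oleate, was called in 3 lines with mixed signs. SCD was at 186, 172 and 192 FPKM in siC and 242, 246 and 256 in siI1 in ES2, a rise of 0.44 ± 0.05 (adjusted p = 0.00272). SCD fell in MV3, at 113, 112 and 108 FPKM in siC and 81.7, 88.4 and 82.1 in siI1 (-0.40 ± 0.04, adjusted p = 0.000838). It also fell in PANC1, at 262, 251 and 261 FPKM in siC and 222, 231 and 208 in siI1 (-0.23 ± 0.06, adjusted p = 0.0404). The SCD values in A549 were 124, 115 and 113 FPKM in siC and 104, 109 and 107 in siI1, without overlap but not called. ELOVL6, which lengthens palmitate, rose in A549 and fell in MV3. ELOVL6 was at 5.91, 6.1 and 5.97 FPKM in siC and 7.84, 7.71 and 7.81 in siI1 in A549 and at 5.58, 5.76 and 6 FPKM in siC and 4.22, 3.96 and 3.93 in siI1 in MV3. These changes were 0.35 ± 0.07 (adjusted p = 0.023) and -0.47 ± 0.05 (adjusted p = 0.0011). In ES2 ELOVL6 gave 16.8, 14.9 and 16.4 FPKM in siC and 16.5, 18 and 16.7 in siI1 and in PANC1 1.62, 1.45 and 1.73 FPKM in siC and 1.28, 0.934 and 0.842 in siI1. The PANC1 groups did not overlap, at low levels, and the estimate of -0.47 ± 0.17 (adjusted p = 0.086) was not called, whereas voom on recovered reads gave -0.65 (adjusted p = 0.0144).

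FADS1 and FADS2, the delta-5 and delta-6 desaturases of polyunsaturated fatty acids, lie side by side on chromosome 11 on opposite strands and share 490 exon bases. Their calls differed. FADS1 was at 16.3, 16 and 15 FPKM in siC and 10.9, 11.1 and 11.1 in siI1 in MV3. FADS1 read 24.2, 23.8 and 25 FPKM in siC and 17.3, 17 and 17 in siI1 in PANC1. In A549 it was at 38.9, 38.8 and 38.4 FPKM in siC and 32.1, 34.7 and 32.5 in siI1. FADS1 therefore fell in these 3 lines, with log2 fold changes of -0.49 ± 0.04 (adjusted p = 0.000427), -0.49 ± 0.05 (adjusted p = 0.0018) and -0.22 ± 0.05 (adjusted p = 0.0309), with the lowest log2(FPKM + 0.5) estimate of the fatty acid enzymes in MV3 and PANC1, although ELOVL6 had lower FPKM ratios there (0.698 against 0.701 in MV3 and 0.638 against 0.704 in PANC1). ES2 values of FADS1, 22, 22.1 and 24.2 FPKM in siC and 22.6, 22.9 and 24.8 in siI1, overlapped. FADS2 was at 28.9, 27.4 and 28.1 FPKM in siC and 20.6, 20.1 and 18.7 in siI1 in A549, lower by the test (-0.50 ± 0.06, adjusted p = 0.00401). FADS2 rose in MV3, where it was at 2.36, 2.18 and 1.81 FPKM in siC and 2.73, 3.21 and 3.21 in siI1 (0.44 ± 0.11, adjusted p = 0.0206). FADS2 also rose in ES2, at 5.86, 6.46 and 6.7 FPKM in siC and 7.67, 7.51 and 7.85 in siI1 (0.26 ± 0.07, adjusted p = 0.0398). In PANC1 the FADS2 values of 26.7, 26.7 and 24.8 FPKM in siC and 25.6, 28.5 and 24.6 in siI1 overlapped. In MV3 the neighbours thus changed in opposite directions.

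The effect of the knockdown differed between lines for 29 of the 32 genes in the joint test, beside 45.0% of the 12816 genes tested, and not for SC5D (0.0657), SCAP and INSIG2. The lowest adjusted p among members was that of ABCA1 (6.31e-08), followed by DHCR7 (1.69e-07) and SCD (2.14e-07). Among the 18 sterol enzymes the highest estimate was in PANC1 for most and in ES2 for ACAT2, SQLE and MSMO1. Without PANC1, 23 members still differed between the other lines. The joint fit compares effects within lines, because levels were normalised line by line. The level of IGF2BP1 left after knockdown also differed between lines, from 0.249 of siC in PANC1 to 0.394 in A549, and its part was not tested.

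Few libraries stood behind each call, so each fit was repeated without 1 library at a time. Of the 71 calls over genes and lines, 51 were made in all 6 fits of their line and 20 were lost in at least 1, while none of the 71 called estimates changed sign. In A549, the line of lowest depth, 8 of 12 calls were lost in 3 to 5 of the 6 fits: those of ACACA (adjusted p up to 0.0913), ACLY (0.0627), ELOVL6 (0.0695), FADS1 (0.088), MSMO1 (0.15), PMVK (0.128), SQLE (0.091) and STARD4 (0.138). The A549 calls of SREBF1, INSIG1, ABCA1 and FADS2 were made in every fit. In ES2 the calls of FADS2 (up to 0.124, lost in 6 of 6 fits), FDFT1 (0.073), HSD17B7 (0.0985), INSIG1 (0.0794) and MVD (0.121) were lost. In MV3 those of FADS2 (0.0704), FDFT1 (0.0633) and MVD (0.0652) were lost in 3 fits each and that of TM7SF2 (0.0506) without siI1 library 3. In PANC1 those of ACACA (0.112), FASN (0.0729) and SCD (0.13) were lost. The rises of HMGCS1 and SREBF2 in ES2, MV3 and PANC1 and the falls of SREBF1 in all 4 lines were called in every fit without 1 library. Other settings ended further calls. Without the filter on low values these were PMVK and STARD4 in A549, MVD, HSD17B7 and FADS2 in ES2 and ACACA and SCD in PANC1 (adjusted p 0.0507 to 0.0979), and with equal library sums SQLE, STARD4, ACACA, ELOVL6 and FADS1 in A549 (0.0542 to 0.127) and FDFT1 in MV3 (0.145). In PANC1, equal library sums also ended the rises of ACAT2, IDI1, FDPS, FDFT1, SQLE, LSS, CYP51A1, TM7SF2, HSD17B7, EBP, SC5D, DHCR7, ACLY and SREBF2 (-0.27, adjusted p = 0.203). FASN was called lower in PANC1 on that scale (-0.50, adjusted p = 0.0204). The median of ratios ended that of SCD in PANC1 (0.0719).

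Levels in control cells are given per line, as ranks among protein-coding genes of the same line. SCD and FASN were among the most abundant members throughout, at percentiles of 97.8 to 99.4 and 92.9 to 98.9, as was ACLY at 94.5 to 99.1. HSD17B7, at 10.6 to 28.2, and INSIG2, at 15.4 to 27.6, were low in all 4 lines. FADS2 ranged most widely among the 32, from 17.8 in MV3 to 88.3 in A549, followed by EBP, from 19.8 in MV3 to 88.8 in PANC1.

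What the genes share beyond their roles was read from the annotation. The longest annotated 3′ untranslated region had a median of 702.5 nt over the 18 sterol enzymes and 2327 nt over the 7 fatty acid enzymes, beside 1537.5 nt over 9590 protein-coding genes tested in all 4 lines (GENCODE release 44, hg38). Within the sterol enzymes it ran from 60 nt in FDPS to 5901 nt in SC5D, and HMGCS1, with the largest rise, had 3664 nt.

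Other genes of the pathway were read in 6 lists of 42 genes in all. Of those tested, 3 fell (7.69%, beside 7.83% of all genes) and 5 rose (12.8%, beside 5.93%) in A549. In ES2, 4 fell (10.5%, beside 13.0%) and 6 rose (15.8%, beside 10.5%). In MV3, 13 fell (33.3%, beside 19.5%) and 11 rose (28.2%, beside 16.3%). In PANC1, 8 fell (20.5%, beside 13.4%) and 7 rose (17.9%, beside 11.3%). Tested genes numbered 38 in ES2 and 39 in each other line, and the shares of those that fell in A549 and ES2 were at or under the share over all genes. Among the 7 genes that process SREBPs or degrade sterol enzymes in the endoplasmic reticulum, MBTPS1, the site-1 protease, had the lowest adjusted p. It rose by 0.33 ± 0.05 (adjusted p = 0.00861) in A549, 0.54 ± 0.04 (adjusted p = 0.00069) in ES2 and 0.29 ± 0.04 (adjusted p = 0.00197) in MV3, and was at -0.04 in PANC1, not called. MBTPS2, the site-2 protease that makes the second cut and frees the transcription factor, fell in all 4 lines, with log2 fold changes of -1.06 in PANC1, -0.62 in ES2, -0.50 in MV3 and -0.31 in A549 (limma adjusted p 0.00272 to 0.0403). The pair that cleaves SREBPs was therefore called in opposite directions in A549, ES2 and MV3. MBTPS2, and SOAT1 below, were singled out after their values were seen, while the other genes named here had the lowest adjusted p of their list.

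Of the 5 other SREBP targets, 0 were called in A549, 2 rose in ES2, 2 rose and 1 fell in MV3, and 3 rose and 1 fell in PANC1. TMEM97, a sterol-binding protein of the endoplasmic reticulum, was among them in both directions, at 0.60 ± 0.07 (adjusted p = 0.00247) in PANC1 and -0.37 ± 0.06 (adjusted p = 0.00376) in MV3. The 9 genes of isoprenoid branches had 0 calls in A549, 1 rise in ES2, 4 falls and 1 rise in MV3, and 1 fall and 1 rise in PANC1. PDSS1, a subunit of the ubiquinone side chain synthase, fell in MV3 (-0.45 ± 0.05, adjusted p = 0.000795). Of the 9 further elongation and desaturation genes, 2 rose in each of A549 and PANC1 and 1 in each of ES2 and MV3, while 3 fell in MV3, among them the desaturase SCD5 (-0.38 ± 0.04, adjusted p = 0.00118). The counts in these small lists stand beside 7.83% lower and 5.93% higher over all tested genes in A549, 13.0% and 10.5% in ES2, 19.5% and 16.3% in MV3, and 13.4% and 11.3% in PANC1.

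In the list of liver X receptors and their targets, 4 of 5 genes were tested. Of these, 3 rose in MV3 and 1 rose in PANC1, beside 16.3% and 11.3% of all tested genes. In each of A549, ES2 and PANC1, 1 fell, beside 7.83%, 13.0% and 13.4%. NR1H3, which encodes LXR alpha, rose in MV3 (0.50 ± 0.08, adjusted p = 0.00471) and was at 0.25 in A549, not called. In the list of sterol esters and trafficking, NCEH1, a cholesterol ester hydrolase, fell in all 4 lines, with -1.01 ± 0.06 (adjusted p = 0.000312) in ES2, -0.81 ± 0.04 (adjusted p = 0.000147) in MV3, -0.62 ± 0.06 (adjusted p = 0.00213) in PANC1 and -0.34 ± 0.08 (adjusted p = 0.0355) in A549. SOAT1, which makes those esters, fell in ES2 (-0.50), MV3 (-0.59) and PANC1 (-0.64), and was at -0.13 in A549, not called. The enzymes on both sides of the ester cycle were therefore lower in ES2, MV3 and PANC1. The list as a whole had 2, 2 and 3 falls of 6 tested genes there, beside 13.0%, 19.5% and 13.4% of all tested genes.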

How the data were processed

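Total RNA was sequenced from 24 libraries, 3 for each of 8 groups (4 cell lines, siC and siI1), after ribosomal RNA depletion, with paired-end reads from a strand-specific kit. Per the submitters' processing notes and the study's methods, the authors trimmed reads with cutadapt 1.14, aligned them to hg38 with HISAT2 2.1.0, used SAMtools 1.5, counted them per Ensembl gene with featureCounts 1.5.3 and ran edgeR 3.30.3 with TMM normalization. Each line has its own deposited table of FPKM per library (on the TMM-scaled library size), with a gene length and the authors' comparison. The authors' log2 fold changes and p-values in those tables were not used. Whether counting kept the strands apart is not given in the sources used here. The study's methods call the replicates biological.

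In each line, siI1 was set against siC on log2(FPKM + 0.5) with limma 3.58.1 (trend) in R 4.3.3, for genes averaging 0.5 FPKM or more across its 6 libraries. Whether effects differed between lines was tested by an F test in 1 limma fit of 24 libraries, over genes passing in all 4 lines. P-values were adjusted by the Benjamini-Hochberg method over all genes tested, with a threshold of 0.05. Assigned reads per library were recovered from the steps of low FPKM values and the listed lengths, and were used for depth and for 1 alternative. Intervals of fold changes are 95%, from the limma fit. Both fits were tested on simulated counts, with 1 value per line for the spread between replicates. Limits on the outcome were set only for the fits within lines and for genes averaging at least 100 reads. The 32 genes, the other pathway lists and the markers were chosen with earlier results of these data known. A gene was given in every library where it was called in at least 3 lines, was called in opposite directions, or had the largest rise or fall in a line. For each other pathway list the gene with the lowest adjusted p was named. Alternatives were other pseudocounts and filters, library scaling to equal sums or by the median of ratios, a count-based weighting, the replicate number as a block, and leaving out each library. Promoters are RefSeq windows on GRCh38.p14, and gene positions and untranslated regions are from GENCODE release 44.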

Additional observations from a re-analysis of the deposited data

Results flagged for a closer look

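For 29 of the 32 genes the effect of the knockdown differed between the 4 lines (limma F test of the interaction over 24 libraries, adjusted over 12816 genes, of which 45.0% passed). Each is given with its adjusted p and with the lowest and the highest log2 fold change over the lines.

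Among the sterol enzymes, ACAT2 had an adjusted p of 2.28e-05, with 0.08 in MV3 and 0.86 in ES2. HMGCS1 ran from 0.20 in A549 to 1.51 in PANC1 (adjusted p = 1.33e-06). The adjusted p of MVK was 7.64e-07, between -0.34 in A549 and 1.20 in PANC1. PMVK had an adjusted p of 0.0038, with -0.46 in A549 and 0.15 in PANC1. MVD ran from 0.11 in A549 to 1.18 in PANC1 (adjusted p = 0.000149). For IDI1 the test gave 1.62e-06, between -0.10 in A549 and 0.69 in PANC1. FDPS had an adjusted p of 0.000165, with -0.17 in MV3 and 0.39 in PANC1. FDFT1 ran from -0.07 in A549 to 0.97 in PANC1 (adjusted p = 4.50e-06). The adjusted p of SQLE was 7.43e-05, between 0.05 in MV3 and 0.57 in ES2. LSS had an adjusted p of 5.80e-06, with -0.24 in A549 and 0.63 in PANC1. CYP51A1 ran from -0.14 in MV3 to 0.86 in PANC1 (adjusted p = 0.00436). For TM7SF2 the test gave 0.000312, between -0.49 in A549 and 0.64 in PANC1. MSMO1 had an adjusted p of 5.35e-06, with 0.46 in A549 and 1.32 in ES2. NSDHL ran from 0.02 in A549 to 1.15 in PANC1 (adjusted p = 1.20e-05). The adjusted p of HSD17B7 was 6.98e-06, between -0.43 in A549 and 0.91 in PANC1. EBP had an adjusted p of 0.00176, with -0.19 in A549 and 0.75 in PANC1. DHCR7 ran from -0.26 in A549 to 0.78 in PANC1 (adjusted p = 1.69e-07).

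In the SREBP machinery, SREBF1 had an adjusted p of 0.00324, with -0.98 in A549 and -0.50 in MV3. SREBF2 ran from 0.14 in A549 to 0.54 in ES2 (adjusted p = 0.00147). For INSIG1 the test gave 6.30e-07, between -0.59 in A549 and 0.21 in PANC1.

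In sterol transport, STARD4 had an adjusted p of 0.00606, with -0.78 in A549 and 0.04 in PANC1. ABCA1 ran from 0.08 in PANC1 to 1.52 in A549 (adjusted p = 6.31e-08).

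Among the fatty acid enzymes, ACLY had an adjusted p of 6.37e-07, with -0.32 in A549 and 0.47 in PANC1. ACACA ran from -0.32 in MV3 to -0.01 in ES2 (adjusted p = 0.0139). The adjusted p of FASN was 9.20e-05, between -0.37 in MV3 and 0.26 in PANC1. SCD had an adjusted p of 2.14e-07, with -0.40 in MV3 and 0.44 in ES2. ELOVL6 ran from -0.47 in PANC1 to 0.35 in A549 (adjusted p = 1.49e-05). For FADS1 the test gave 4.78e-06, between -0.49 in PANC1 and 0.04 in ES2. FADS2 had an adjusted p of 8.92e-06, with -0.50 in A549 and 0.44 in MV3.

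Tables were normalised line by line, and PANC1 cells were taken at a later time than the others. The share of IGF2BP1 left after knockdown also differed between lines, and its part was not tested. Without PANC1, 23 of the 32 genes passed the same test over the other 3 lines.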

How the results depend on the processing

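Among the 128 fold changes of genes in lines, a turn of direction was counted only where the main fit or the alternative made a call. The alternatives on pseudocount (0.1 or 1), filter, median of ratios and count-based weighting (voom, or a variance trend on recovered reads that was chosen after seeing the data) gave no such turn. The filter at 1 FPKM kept 126 of the values. Setting every library to the same sum over all genes mattered most, and shifted the median of all genes by -0.65 in PANC1 (to -0.68) but by -0.03, 0.06 and -0.01 in A549, ES2 and MV3. In PANC1 it left 5 members higher and 12 lower, with medians of 0.06 for sterol and -0.98 for fatty acid enzymes. Of the members called on either scale, it turned PMVK (-0.59), IDI1 (-0.05), FDPS (-0.36), SQLE (-0.20), LSS (-0.10), TM7SF2 (-0.09), SC5D (-0.44), SREBF2 (-0.27), SCAP (-0.61), INSIG1 (-0.53), STARD4 (-0.66), ACLY (-0.28), FASN (-0.50) and FADS2 (-0.73). RN7SL2 moved with this scale and its part was not tested. The same scaling gave 1 member higher and 5 lower in A549 with a sterol median of -0.12, and medians of 0.35 (sterol) and 0.11 (fatty acid) in ES2. The same sum over protein-coding genes shifted the median of all genes by 0.12 in ES2, 0.12 in MV3, 0.02 in A549 and -0.04 in PANC1, with sterol and fatty acid medians of 0.42 and 0.18 in ES2 and of 0.20 and -0.24 in MV3. The median of ratios gave a sterol median of -0.05 in A549 and 2 members lower in PANC1, as did testing without a filter for the latter. The cause of these moves was not tested.

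Leaving out 1 library gave 1 to 3 members higher and 3 to 5 lower in A549, 10 to 12 higher and 2 to 2 lower in ES2, 7 to 10 and 8 to 9 in MV3, and 19 to 21 and 2 to 4 in PANC1. The sterol medians then ran from -0.10 to -0.07 in A549, 0.28 to 0.34 in ES2, 0.04 to 0.13 in MV3 and 0.77 to 0.85 in PANC1, and the fatty acid medians from -0.26 to -0.20, 0.02 to 0.08, -0.43 to -0.32 and -0.26 to -0.19. Members whose effect differed between lines numbered 28 to 30.

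With the replicate number as a block, 1 member was higher and 3 lower in A549, 6 were higher in MV3 and 2 lower in PANC1. In ES2 the rises of MVD, FDFT1, HSD17B7, INSIG1 and FADS2 were not called (limma adjusted p 0.0651 to 0.114). Over the 4 lines, 19 of the 71 calls were lost. Same-numbered siC and siI1 libraries did not visibly deviate together (r of -0.056 to 0.071 over 12 pairs), and 3 of 12 correlated best with their own number. Such correlations can miss a small shared effect, so they cannot decide whether same-numbered libraries were handled together. Depth limits A549 most, where 11 members had a library under 100 reads, against 6 in ES2, 3 in MV3 and 4 in PANC1.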
